A study of Mus musculus with 12 samples.

Results

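Interferon-stimulated genes were followed across 12 exon arrays of mouse bone marrow cultures that carried a retroviral Hoxa9 vector, alone or with a form of Meis1. The 36 genes were a given list of sensors, transcription factors, feedback genes, effectors, GTPases and Ifitm genes. Of them 35 had a probe set naming that gene symbol alone, and Isg15 was not analysed here. Ifit3 had no probe set above the filter on dim probe sets, with values between log2 3.42 and 4.80 when no filter was set, so 34 genes were tested among 20711 in all. These 34 are named members below.

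The cells came from the marrow of 12-week-old female C57B/6 mice treated with 5-fluorouracil (5-FU), a drug that spares early progenitors. They were transduced with murine stem cell virus (MSCV) vectors and grown in DMEM with 15% fetal calf serum, IL3, SCF and IL6. All 3 conditions carried the Hoxa9 vector. The second vector was empty (HOXA9+MIY), expressed full-length Meis1 (HOXA9+MEIS1), or expressed Meis1 with its DNA-binding homeodomain deleted (HOXA9+MDHD). Of the 4 arrays of a condition, 2 were from week 3 in culture and 2 from week 4. The experiments are labelled as independent, but it is not stated whether arrays of the 2 weeks share a culture, so the p-values measure the spread between these arrays. The mice from which each culture was started, and the number of transduced clones in it, are not given in the sources used here.

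Interferons bind receptors at the cell surface and act through Jak kinases on Stat proteins. Type I interferons act through a complex that includes Stat2 and Irf9 and binds the interferon-stimulated response element (ISRE), whereas interferon gamma acts on gamma-activated sites (GAS). Many of the induced genes have a basal level without added interferon, and several, among them Ifitm genes, are also expressed as part of a cell type's own programme. No interferon treatment is named in the labels.

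The promoters were read first, because interferon signals act through these elements. The shares describe sequences and use no array value. RefSeq promoter sequences (GRCm38.p6, from 250 bases before to 50 after the start) were matched by symbol for 29 of the 36 listed genes. The ISRE core, GAAA and again GAAA with 2 bases of any kind between, searched on both strands, lay in the promoters of 16 of the 29 genes (55.2%), against 3.99% of 27025 genes with a promoter of that length. GAS, searched as TTCNNNGAA, which reads the same on both strands, lay in 9 of 29 (31%), against 9.55%. Counted by promoter, 3.44% of 32851 held the ISRE core and 8.30% held GAS. Neighbouring matches can overlap, and a match describes letters, not binding.

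The windows of 120 bases before the start are shown for 6 of the members that were called in a comparison and whose window holds a match, on the gene's strand from 5′ to 3′, with the matching bases in capitals. Igtp and Oas1a carry both motifs and moved in opposite directions between conditions. Isg20 and Ifitm6 carry GAS alone. Irgm1 and Gbp3 carry the ISRE core alone and fell between the weeks. The 6 are examples, and Rsad2, not shown, also carries the ISRE core alone but rose between the weeks. Over all members with a promoter, the ISRE core lay in 3 of 6 called higher at week 4 and in 7 of 11 called lower. In HOXA9+MEIS1 against HOXA9+MIY it lay in 2 of 3 called higher, 1 of 5 called lower and 11 of 19 not called. GAS lay in 2, 3 and 4 of these in turn. For Isg20 1 of 3 listed promoters is shown and for Gbp3 1 of 2.
Igtp (chr11:58199436-58199555, plus strand): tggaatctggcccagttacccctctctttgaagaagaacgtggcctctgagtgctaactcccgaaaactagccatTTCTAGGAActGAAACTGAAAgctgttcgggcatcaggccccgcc
Oas1a (chr5:120907526-120907645, minus strand): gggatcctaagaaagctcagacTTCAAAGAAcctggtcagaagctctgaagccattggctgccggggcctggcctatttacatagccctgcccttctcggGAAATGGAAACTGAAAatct
Isg20 (chr7:78913304-78913423, plus strand): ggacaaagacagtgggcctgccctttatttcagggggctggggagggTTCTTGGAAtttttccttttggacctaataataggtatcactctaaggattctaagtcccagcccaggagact
Ifitm6 (chr7:141016893-141017012, minus strand): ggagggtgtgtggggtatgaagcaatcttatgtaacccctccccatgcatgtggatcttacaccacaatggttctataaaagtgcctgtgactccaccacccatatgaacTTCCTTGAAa
Irgm1 (chr11:48871421-48871540, minus strand): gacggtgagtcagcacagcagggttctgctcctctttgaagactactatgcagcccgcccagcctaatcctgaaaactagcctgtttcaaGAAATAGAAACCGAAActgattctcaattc
Gbp3 (chr3:142559924-142560043, plus strand): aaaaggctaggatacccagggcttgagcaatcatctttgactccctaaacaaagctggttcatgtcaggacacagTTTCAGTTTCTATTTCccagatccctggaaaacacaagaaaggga

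Values below are log2 gene values, the median polish of a gene's probe sets, and are compared within a gene only. Differences are log2 differences ± limma's standard error from a model with condition and week over all 12 arrays, and a gene is called where its adjusted p (Benjamini-Hochberg, across 20711 genes, from that limma fit) is under 0.05. A level of 6.26 was the filter on dim probe sets; where a group's mean lay under it, each of its arrays under 6.26 was set to 6.26 and the fold is given as at least that. Hoxa9 stood between 13.29 and 13.37 as group means, and Meis1 at 6.85 with the empty vector against 9.73 with full-length Meis1 and 9.44 with the deleted form. Arrays correlated at 0.965 to 0.990 over named probe sets. Without HOXA9+MDHD week 4 array 2, all genes called between HOXA9+MDHD and HOXA9+MIY rose from 396 to 989.

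**Figure D1:**
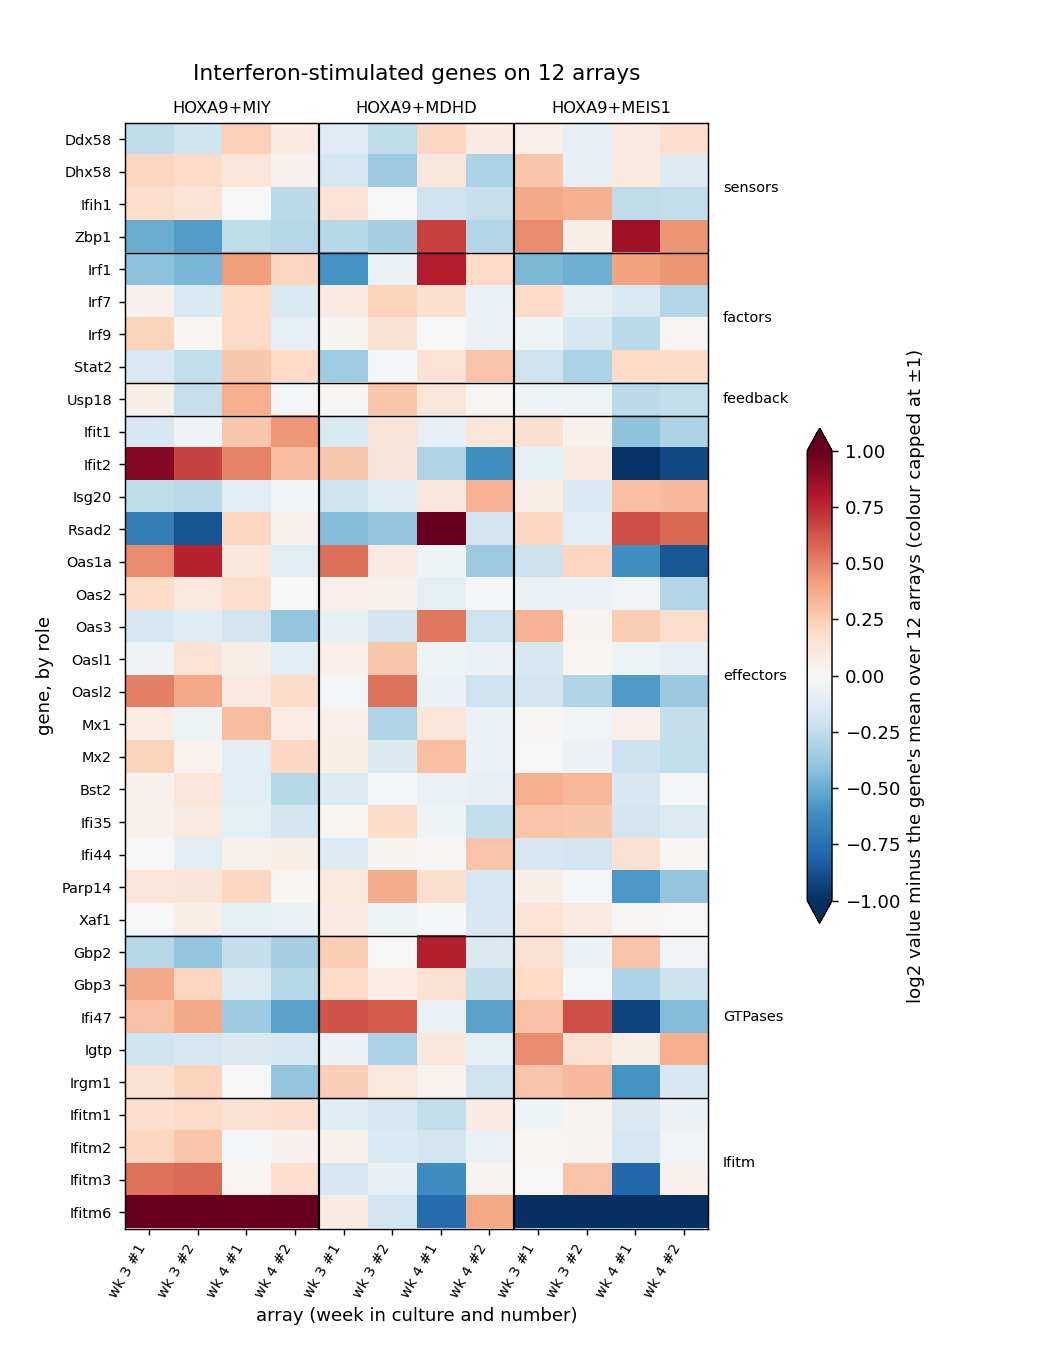
Log2 value of each of the 34 members (rows, grouped by role) minus its mean over the 12 arrays (columns, by condition, week and number), with colour capped at ±1. Ifitm6 is past the cap in opposite directions in all HOXA9+MIY and all HOXA9+MEIS1 arrays, Ifi47 and Irf1 follow the weeks, and Rsad2, Zbp1, Irf1 and Gbp2 stand high on HOXA9+MDHD week 4 array 1.

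Full-length Meis1 went with calls in both directions among the members. Against HOXA9+MIY, 4 of 34 members were higher in HOXA9+MEIS1 (5.29% of all genes were called higher) and 5 were lower (5.56% of all genes). The 4 were Zbp1, Rsad2, Igtp and Isg20, and the 5 were Ifitm6, Ifit2, Oas1a, Oasl2 and Ifitm1. The other 25 members were not called, and the median difference over the 34 was -0.08, against -0.01 over all genes. By role, 1 of 4 sensors, 0 of 4 factors, 5 of 16 effectors, 1 of 5 GTPases and 2 of 4 Ifitm genes were called, and the feedback gene Usp18 was not. From the week 4 arrays alone, which are 6, the calls of all 4 higher members were lost. There 5 members were called, 0 of them higher, and 371 of the 859 genes called in all were higher.

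Among the Ifitm genes, which encode small membrane proteins that restrict the entry of enveloped viruses, Ifitm6 had the widest range. On the HOXA9+MIY arrays Ifitm6 stood at 9.79 and 9.66 at week 3 and at 9.01 and 9.25 at week 4. On the HOXA9+MEIS1 arrays Ifitm6 stood at 5.67 and 6.39 at week 3 and at 5.38 and 6.27 at week 4. Levels in HOXA9+MDHD lay between these, at 7.70 and 7.43 at week 3 and at 6.85 and 8.00 at week 4. No array of one condition reached the values of another. Ifitm6 was at least 8.76-fold lower in HOXA9+MEIS1 than in HOXA9+MIY (-3.50 ± 0.255, adjusted p = 4.39e-06) and 3.81-fold lower in HOXA9+MDHD (-1.93 ± 0.255, adjusted p = 0.00400). The difference between both Meis1 forms was also called, with HOXA9+MEIS1 at least 2.30-fold lower (-1.57 ± 0.255, adjusted p = 0.00367). Of the 5 Ifitm6 probe sets 2 passed the filter, and both were lower in HOXA9+MEIS1, by log2 -3.77 and -3.23.

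The other Ifitm genes were measured at high levels and differed less. Ifitm1 lay between 13.11 and 13.15 on the 4 HOXA9+MIY arrays, between 12.81 and 12.98 in HOXA9+MEIS1 and between 12.71 and 13.04 in HOXA9+MDHD. Both Meis1 forms lay wholly below the empty vector, and the drops of 1.17-fold (-0.22 ± 0.059, adjusted p = 0.0296) and 1.22-fold (-0.29 ± 0.059, adjusted p = 0.0310) were each called. Of the 4 Ifitm1 probe sets 2 passed the filter, and they differed in size. They were at -0.35 and -0.10 in HOXA9+MEIS1, and at -0.48 and -0.10 in HOXA9+MDHD. With no filter the HOXA9+MDHD call was lost. Each call was lost without any 1 of the 4 HOXA9+MIY arrays. It was also lost without HOXA9+MEIS1 week 3 array 1 or either week 4 array in the former (over these and the HOXA9+MIY arrays -0.23 to -0.19, adjusted p = 0.0648 to 0.0966). In the latter it was also lost without either HOXA9+MDHD week 3 array or week 4 array 1 (likewise -0.29 to -0.24, adjusted p = 0.0803 to 0.0947). Ifitm2 and Ifitm3 were not called in either comparison, with Ifitm3 at -0.44 ± 0.170 in HOXA9+MEIS1 (adjusted p = 0.142) and at -0.53 ± 0.170 in HOXA9+MDHD (adjusted p = 0.158).

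Of the RNA-binding Ifit family, Ifit2 fell with both forms of Meis1. Its HOXA9+MIY values were 7.38 and 7.15 at week 3 and 6.97 and 6.78 at week 4. With full-length Meis1 they were 6.38 and 6.56, then 5.49 and 5.57. Without the homeodomain they were 6.74 and 6.60, then 6.17 and 5.86. Every array with a Meis1 form lay below every HOXA9+MIY array. The fall was at least 1.63-fold in HOXA9+MEIS1 (-1.07 ± 0.128, adjusted p = 0.00016) and 1.66-fold in HOXA9+MDHD (-0.73 ± 0.128, adjusted p = 0.0144). Of the HOXA9+MDHD arrays 2 of 4 lay under 6.26, which was not allowed for in that fold, so the folds of both forms are not to be compared. The latter call was lost without HOXA9+MIY week 3 array 1 or week 4 array 1 (-0.74 and -0.64, adjusted p = 0.0527 to 0.0539). Both rest on 2 of 7 Ifit2 probe sets that passed the filter, and HOXA9+MEIS1 against HOXA9+MDHD was not called (-0.34 ± 0.128, adjusted p = 0.196). Ifit1 was not called (-0.25 ± 0.156 in HOXA9+MEIS1, adjusted p = 0.409).

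Active Oas enzymes make oligoadenylates that activate the nuclease RNase L, which need not hold for every Oas-like protein. Of the Oas and Oas-like genes Oas1a and Oasl2 were called lower, and Oas2, Oas3 and Oasl1 were not called. Oas1a stood at 8.18, 8.48, 7.82 and 7.60 in HOXA9+MIY and at 7.49, 7.92, 7.09 and 6.85 in HOXA9+MEIS1, each time with week 3 before week 4. The groups overlapped over both weeks, but within each week HOXA9+MEIS1 was the lower. With week in the model Oas1a was 1.60-fold lower (-0.68 ± 0.132, adjusted p = 0.00508), with all 4 of its probe sets lower. The Oas1 genes form a cluster of closely similar copies, so signal shared between copies cannot be told apart here; Oas1g, another copy, was also lower in HOXA9+MEIS1 (-1.30 ± 0.170, adjusted p = 0.000322).

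Oasl2, an Oas-like gene, stood at 8.07, 7.95, 7.67 and 7.75 in HOXA9+MIY and at 7.39, 7.27, 7.00 and 7.20 in HOXA9+MEIS1, with no overlap. It was 1.57-fold lower (-0.65 ± 0.104, adjusted p = 0.00140), and all 11 probe sets that passed the filter were lower. In HOXA9+MDHD Oasl2 ranged from 7.36 to 8.11 and was not called against HOXA9+MIY (-0.23 ± 0.104, adjusted p = 0.373). It was called between the Meis1 forms (HOXA9+MEIS1 lower, -0.42 ± 0.104, adjusted p = 0.0404). That call was lost without any 1 of 9 arrays, namely all 4 of HOXA9+MIY, both HOXA9+MEIS1 week 3 arrays and week 4 array 1, and HOXA9+MDHD week 3 array 2 and week 4 array 1 (-0.43 to -0.30, adjusted p = 0.0541 to 0.123). Oas3 lay wholly above HOXA9+MIY in HOXA9+MEIS1 but was not called (0.42 ± 0.142, adjusted p = 0.0889), and without HOXA9+MDHD week 4 array 1 it was (0.42, adjusted p = 0.00536). Oas2 at -0.23 was not called (adjusted p = 0.0927) but was called with no filter (-0.25, adjusted p = 0.0114) and with the mean of the probe sets (-0.30, adjusted p = 0.0196). Oasl1 was at -0.09 and was not called.

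**Figure D2:**
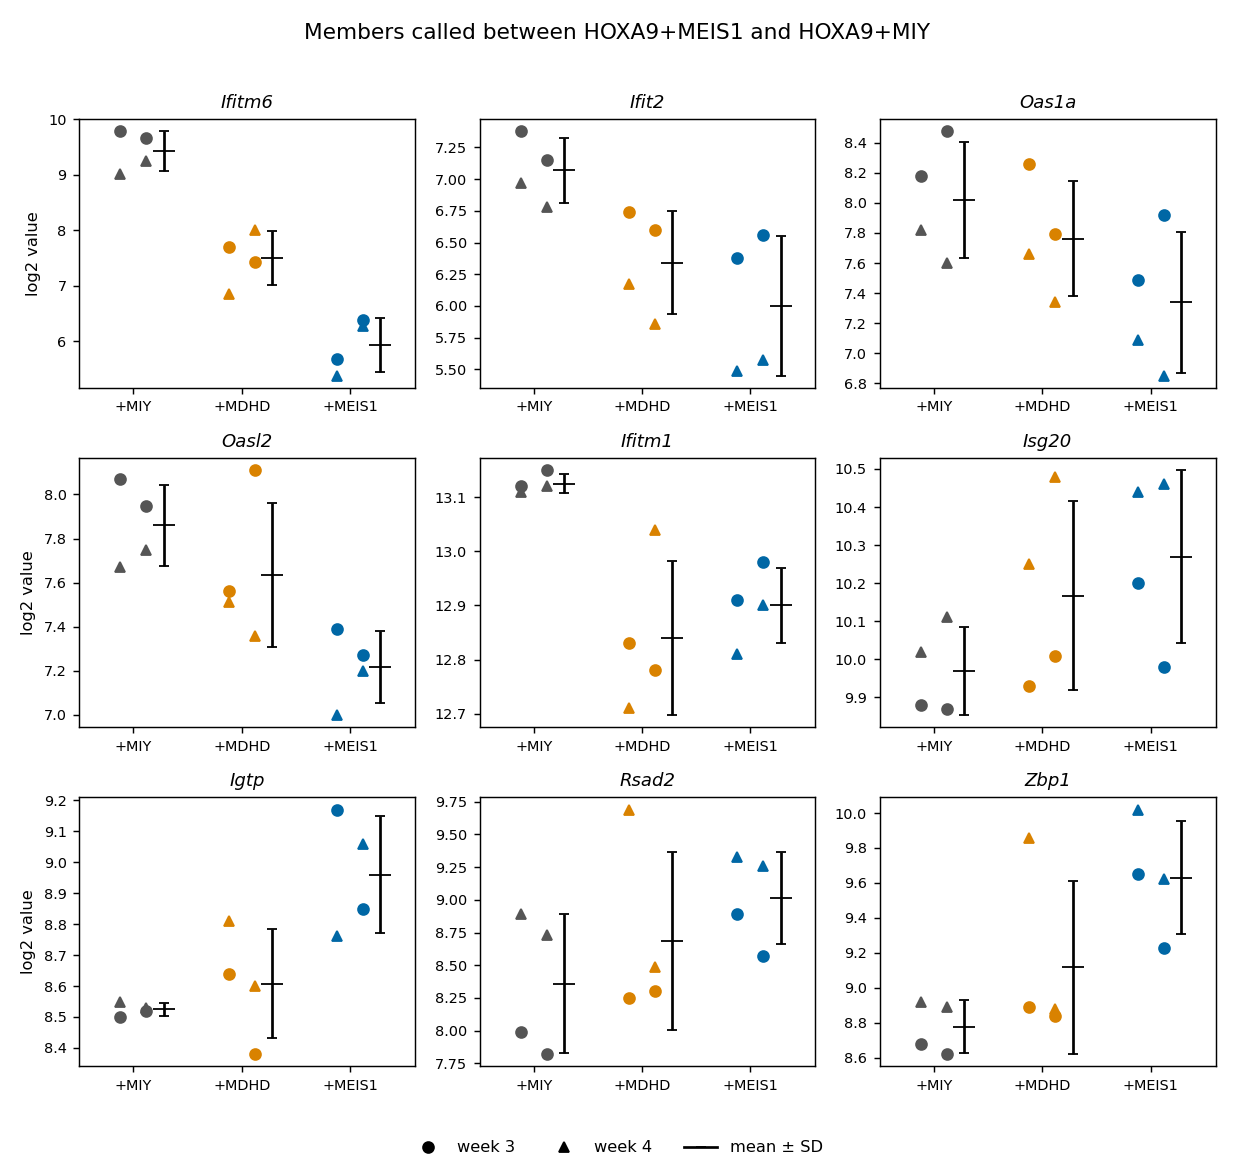
Log2 value of the 9 members called between HOXA9+MEIS1 and HOXA9+MIY, by condition, with circles for week 3, triangles for week 4 and bars for the mean ± SD of 4 arrays. Each panel has its own vertical scale, which does not start at 0. Ifitm6 falls in steps from +MIY to +MDHD to +MEIS1, and Rsad2 and Zbp1 have 1 high +MDHD array each, at 9.69 and 9.86.

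The highest member difference upward was that of Zbp1, a sensor of Z-form nucleic acid that can trigger cell death. Zbp1 stood at 8.68, 8.62, 8.92 and 8.89 on the HOXA9+MIY arrays, in the order of week 3 and week 4. On the HOXA9+MEIS1 arrays it stood at 9.65, 9.23, 10.02 and 9.62, above all of these. The rise was 1.81-fold (0.85 ± 0.175, adjusted p = 0.00695), and all 9 probe sets were higher. On the HOXA9+MDHD arrays Zbp1 stood at 8.89, 8.84, 9.86 and 8.88, so week 4 array 1 alone was near the HOXA9+MEIS1 values, and it was called against neither other condition (adjusted p = 0.445 and 0.146). Without that array Zbp1 was called between the Meis1 forms (HOXA9+MEIS1 higher, 0.72, adjusted p = 0.00554). The RNA helicase sensors Ddx58 (RIG-I), Ifih1 (MDA5) and Dhx58 (LGP2) were not called, with differences between -0.10 and 0.09 in HOXA9+MEIS1.

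Rsad2, which encodes the antiviral enzyme viperin, gave a weaker call in the same direction. Its values were 7.99, 7.82, 8.89 and 8.73 in HOXA9+MIY and 8.89, 8.57, 9.33 and 9.26 in HOXA9+MEIS1, week 3 first. The groups overlapped, but within each week HOXA9+MEIS1 was the higher. The rise was 1.58-fold (0.66 ± 0.194, adjusted p = 0.0495), and the call was lost without any 1 array of HOXA9+MIY or HOXA9+MEIS1 or either week 3 array of HOXA9+MDHD (0.56 to 0.71, adjusted p = 0.0582 to 0.143). On the HOXA9+MDHD arrays Rsad2 stood at 8.25, 8.30, 9.69 and 8.49 (0.33 ± 0.194 against HOXA9+MIY, not called). Without HOXA9+MDHD week 4 array 1 it was called between the Meis1 forms (0.56, adjusted p = 0.0327).

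Isg20, an exonuclease that degrades RNA, stood at 9.88, 9.87, 10.02 and 10.11 in HOXA9+MIY and at 10.20, 9.98, 10.44 and 10.46 in HOXA9+MEIS1. The groups overlapped across the weeks but in neither week taken alone. The rise was 1.23-fold (0.30 ± 0.071, adjusted p = 0.0159). It was lost without HOXA9+MIY week 4 array 1, HOXA9+MEIS1 week 3 array 1 or HOXA9+MEIS1 week 4 array 2 (0.26 to 0.29, adjusted p = 0.0539 to 0.0599).

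Igtp, an immunity-related GTPase that acts on the vacuoles of intracellular pathogens, lay between 8.50 and 8.55 on the 4 HOXA9+MIY arrays. With full-length Meis1 it stood at 9.17, 8.85, 8.76 and 9.06, above all of these. The rise was 1.36-fold (0.44 ± 0.100, adjusted p = 0.0131), and all 8 probe sets were higher. In HOXA9+MDHD Igtp ranged from 8.38 to 8.81 (0.08 ± 0.100, not called). Its relatives Irgm1 and Ifi47 were not called between conditions, at -0.03 and -0.05 in HOXA9+MEIS1. The guanylate-binding protein gene Gbp2 lay above the HOXA9+MIY range in both Meis1 forms without a call (0.40 ± 0.157, adjusted p = 0.144, and 0.53 ± 0.157, adjusted p = 0.128). It was called in HOXA9+MEIS1 without HOXA9+MDHD week 4 array 1 (0.40, adjusted p = 0.0202), and in HOXA9+MDHD without its week 4 array 2 (0.69, adjusted p = 0.0115).

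The transcription factors that carry the interferon signal were not called between any conditions, and 1 of the 4, Irf9, had an unadjusted p under 0.05 in limma, in HOXA9+MEIS1 against HOXA9+MIY. For Stat2 the difference of HOXA9+MEIS1 from HOXA9+MIY was -0.05, with a 95% interval of -0.20 to 0.11. For Irf7, the factor that amplifies type I interferon production, it was -0.07 (-0.30 to 0.16), and for Irf1 it was 0.03 (-0.24 to 0.31). For Irf9 it was -0.20 (-0.38 to -0.02), with an adjusted p of 0.162, and Irf9 was called lower when the filter was raised to the 75th percentile (-0.25, adjusted p = 0.0458). Usp18, which removes Isg15 from proteins and dampens receptor signalling, was at -0.19 ± 0.115 (adjusted p = 0.387). The dynamin-like GTPase genes Mx1 and Mx2 were at -0.15 and -0.22 and were not called. Among the remaining effectors Parp14, an ADP-ribosyltransferase, was at -0.35 ± 0.110 (adjusted p = 0.0667). Parp14 was called with condition and number as a random block, which allows for weeks that share a culture (adjusted p = 0.0358), after quantile normalization (-0.36, adjusted p = 0.0301) and from the groups compared alone (adjusted p = 0.0499). Bst2, which encodes the virion-retaining protein tetherin, was at 0.19 ± 0.086 (adjusted p = 0.209). Ifi35, Ifi44 and Xaf1, the last a partner of the apoptosis inhibitor Xiap, lay between -0.04 and 0.10.

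Meis1 without its homeodomain gave fewer calls among the members. Against HOXA9+MIY, 3 of 34 members were lower in HOXA9+MDHD (1.00% of all genes were called lower), namely Ifitm6, Ifit2 and Ifitm1, as given above. In the other direction 0 of 34 were called (0.908% of all genes were called higher). At an unadjusted p under 0.05 in the same limma fit, 2 members were higher (1272 of 20711 genes) and 7 lower (1498 of 20711). All 4 Ifitm genes were among these 7. The 3 called members were also called in HOXA9+MEIS1, but both comparisons share the 4 HOXA9+MIY arrays. The count fell to 1 without HOXA9+MIY week 3 array 1 or week 4 array 1, and rose to 6 without HOXA9+MDHD week 4 array 2. The median member difference was 0.00, against -0.01 over all genes.

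Between the Meis1 forms, 2 of 34 members were lower in HOXA9+MEIS1, Ifitm6 and Oasl2 (2.11% of all genes were called lower). By the same limma fit 0 of 34 were higher (2.24% of all genes were called higher). At an unadjusted p under 0.05 in that fit, 3 members were higher (1728 of 20711 genes) and 6 lower (1456 of 20711). Without HOXA9+MDHD week 4 array 1 the count of members called rose from 2 to 5, as Zbp1, Rsad2, Oas3 (0.37, adjusted p = 0.0349) and Igtp (0.42, adjusted p = 0.0357) were added and Oasl2 was lost. It was 1, Ifitm6, without any 1 HOXA9+MIY array or either HOXA9+MEIS1 week 3 array. On that array 5 members had their highest value of all 12 arrays, Irf1, Rsad2, Oas3, Mx2 and Gbp2 (6.57% of all genes were highest there). Whether this array differed in culture or handling was not tested.

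**Figure D3:**
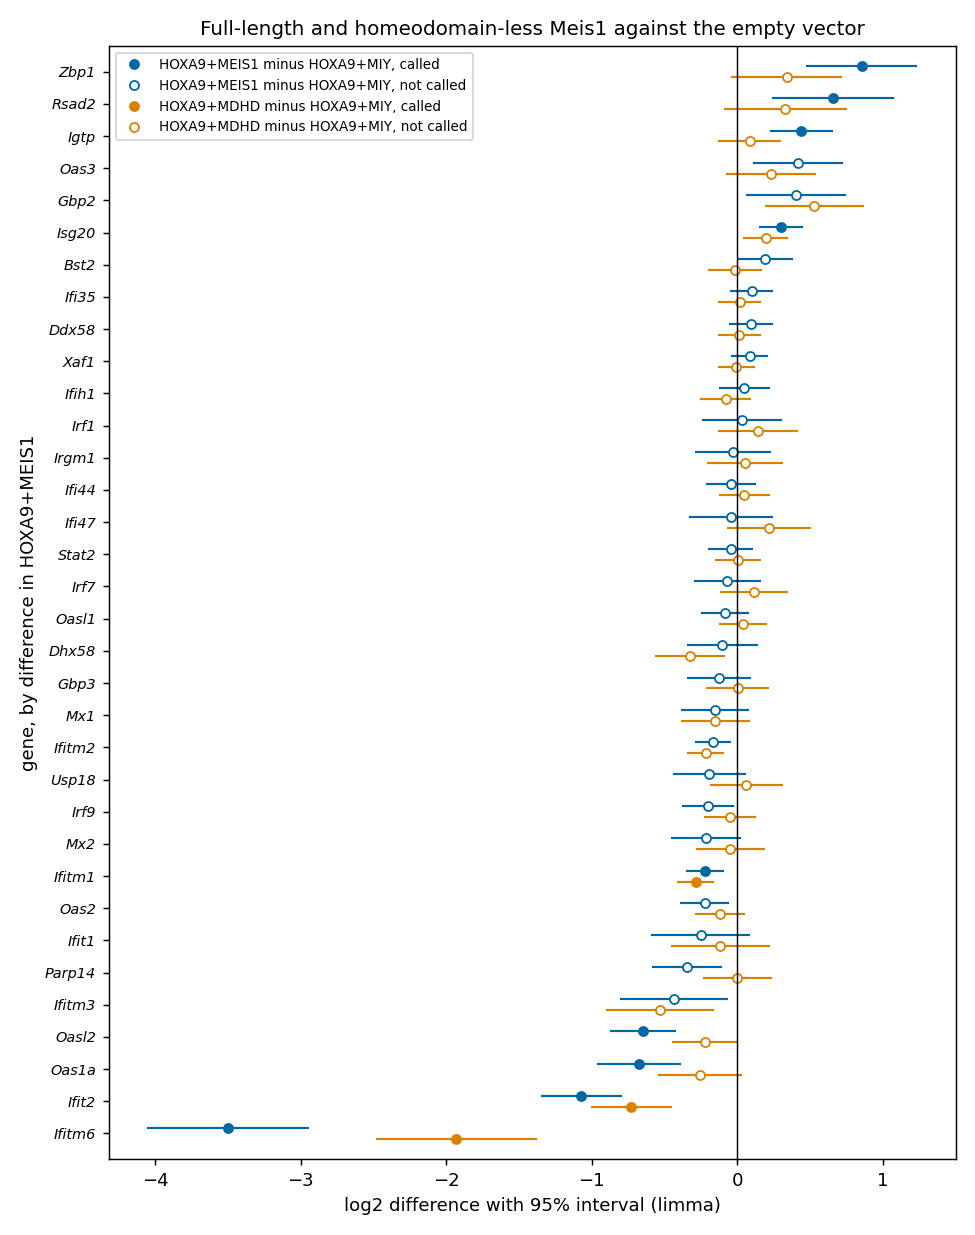
Log2 difference from HOXA9+MIY with its 95% interval for each of the 34 members, for HOXA9+MEIS1 (blue) and HOXA9+MDHD (orange), ordered by the former; filled points were called. Ifitm6, at -3.50 and -1.93, lies far from the other members, of which 25 were not called in HOXA9+MEIS1.

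Markers of cell types moved with the conditions and are given beside these results. The mean log2 level of 10 monocyte and macrophage markers lay at 10.02 to 10.16 in HOXA9+MIY, 9.42 to 9.96 in HOXA9+MDHD and 8.59 to 8.85 in HOXA9+MEIS1, and 7 of the 10 were called lower and 1 higher in HOXA9+MEIS1. For 9 late neutrophil markers the ranges were 10.18 to 11.10, 8.60 to 10.55 and 8.12 to 8.59, and 8 of the 9 were called lower. Within HOXA9+MDHD, week 4 array 2 was the highest for both lists, with late neutrophil markers at 10.55 against 8.60 to 9.77 and monocyte and macrophage markers at 9.96 against 9.42 to 9.54 on the other arrays. The 7 early progenitor markers, Meis1 among them, went the other way, at 8.74 to 8.89, 9.54 to 9.98 and 10.19 to 10.46, with 5 called higher. Meis1 is carried by the second vector in HOXA9+MDHD and HOXA9+MEIS1. Its rise and its call, which is among the 5, therefore follow from the design and add to these means. Ifitm6, like the monocyte and macrophage and the late neutrophil markers, was highest in HOXA9+MIY and lowest in HOXA9+MEIS1. Its arrays did not overlap between conditions, nor did the mean levels of the monocyte and macrophage markers. Those of the late neutrophil markers overlapped between HOXA9+MIY and HOXA9+MDHD. A single gene is set here beside means over several genes. The part of these cells in the member results was not tested. In bulk RNA fewer cells of a type and less RNA per cell cannot be told apart.

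Mean levels of markers of other cell types are given in the order of HOXA9+MIY, HOXA9+MDHD and HOXA9+MEIS1. They were 7.93 to 8.07, 7.94 to 8.19 and 7.76 to 8.02 for 7 plasmacytoid dendritic markers, of which Runx2 was called higher (0.72) and Klk1 lower (-0.97) in HOXA9+MEIS1 than in HOXA9+MIY. For 6 conventional dendritic markers they were 7.08 to 7.22, 7.22 to 7.32 and 7.52 to 7.77, and the 1 called in that comparison was Flt3, also an early progenitor gene. For 5 T and NK markers they were 7.06 to 7.25, 7.07 to 7.13 and 7.04 to 7.34. For 4 B cell markers they were 6.88 to 7.32, 6.89 to 7.31 and 6.90 to 7.05, with Cd79b lower (-0.62), and for 5 stromal and endothelial markers 8.26 to 8.34, 8.32 to 8.63 and 8.29 to 8.37, with Pecam1 higher (0.49). Of the markers measured, Ms4a1 in HOXA9+MIY was the sole one with a group mean below 6.26. Gene values were made only from probe sets with a mean above that level, so this does not show that the other markers were expressed. Ms4a1 kept 1 of 10 probe sets and Ncr1, a T and NK marker, 2 of 8.

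The week in culture went with calls among the members in both directions. At week 4 against week 3, 6 of 34 members were called higher (11.7% of all genes) and 12 were called lower (28.1% of all genes), with a median of -0.08 against -0.02 over all genes. The background is large here, and the split depends on the scaling: 29.5% of all called genes were higher as deposited, 41.9% after median centring and 46.2% after quantile normalization, where 6 members were higher and 8 lower. Each week holds 6 arrays, 2 of each condition, and a batch of processing that followed the weeks cannot be told apart from time in culture. The cell type lists held 53 measured entries, with Flt3 on both the early progenitor and the conventional dendritic list. Of these entries 10 were called higher and 1 lower at week 4. Among them 5 of the 9 late neutrophil markers were higher (median of the 9, 0.51). The part of these cell types in the week results was not tested. HOXA9+MEIS1 week 4 array 1 was the lowest of the 12 arrays for 11 of the 34 members (15.95% of all genes were lowest there).

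The factors Irf1 and Stat2 were higher at week 4. For Irf1 the HOXA9+MIY arrays went from 9.00 and 8.95 to 9.83 and 9.62, the HOXA9+MEIS1 arrays from 8.96 and 8.92 to 9.81 and 9.85, and the HOXA9+MDHD arrays from 8.82 and 9.35 to 10.19 and 9.60. All 6 week 4 values lay above all 6 week 3 values. The rise was 1.76-fold (0.82 ± 0.103, adjusted p = 4.18e-05), with all 14 probe sets higher. Stat2 ranged from 8.82 to 9.16 at week 3 (median 8.95) and from 9.32 to 9.46 at week 4 (median 9.37), 1.34-fold higher without overlap (0.43 ± 0.059, adjusted p = 8.37e-05). Irf7 at -0.09 and Irf9 at -0.08 were not called.

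The other 4 higher members were Rsad2 (0.76 ± 0.158, adjusted p = 0.00181), Isg20 (0.32 ± 0.058, adjusted p = 0.000713), Ddx58 (0.29 ± 0.056, adjusted p = 0.00118) and Ifi44 (0.19 ± 0.065, adjusted p = 0.0358). Ddx58 did not overlap between the weeks. The Ifi44 call was lost with the random block, and without any 1 of 8 arrays (0.15 to 0.20, adjusted p = 0.0507 to 0.0929). These are array 2 of each week in HOXA9+MIY, all 4 HOXA9+MEIS1 arrays, and HOXA9+MDHD week 3 array 1 and week 4 array 2. Its sign turned to -0.17 when the filter was raised to the 75th percentile.

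Of the 5 GTPases 3 were called lower at week 4, Ifi47, Irgm1 and Gbp3. Ifi47 stood at 9.62 and 9.70 in HOXA9+MIY, 9.62 and 9.97 in HOXA9+MEIS1 and 9.95 and 9.93 in HOXA9+MDHD at week 3. At week 4 it stood at 8.96 and 8.79, at 8.40 and 8.89, and at 9.26 and 8.79 in the same order. All week 4 values lay below all week 3 values, a 1.93-fold fall (-0.95 ± 0.108, adjusted p = 1.82e-05) with all 3 probe sets lower. Irgm1 also fell without overlap, 1.36-fold (-0.44 ± 0.098, adjusted p = 0.00283), and Gbp3 fell 1.27-fold (-0.35 ± 0.081, adjusted p = 0.00406). Igtp at 0.04 ± 0.082 and Gbp2 at 0.11 ± 0.128 were not called.

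**Figure D4:**
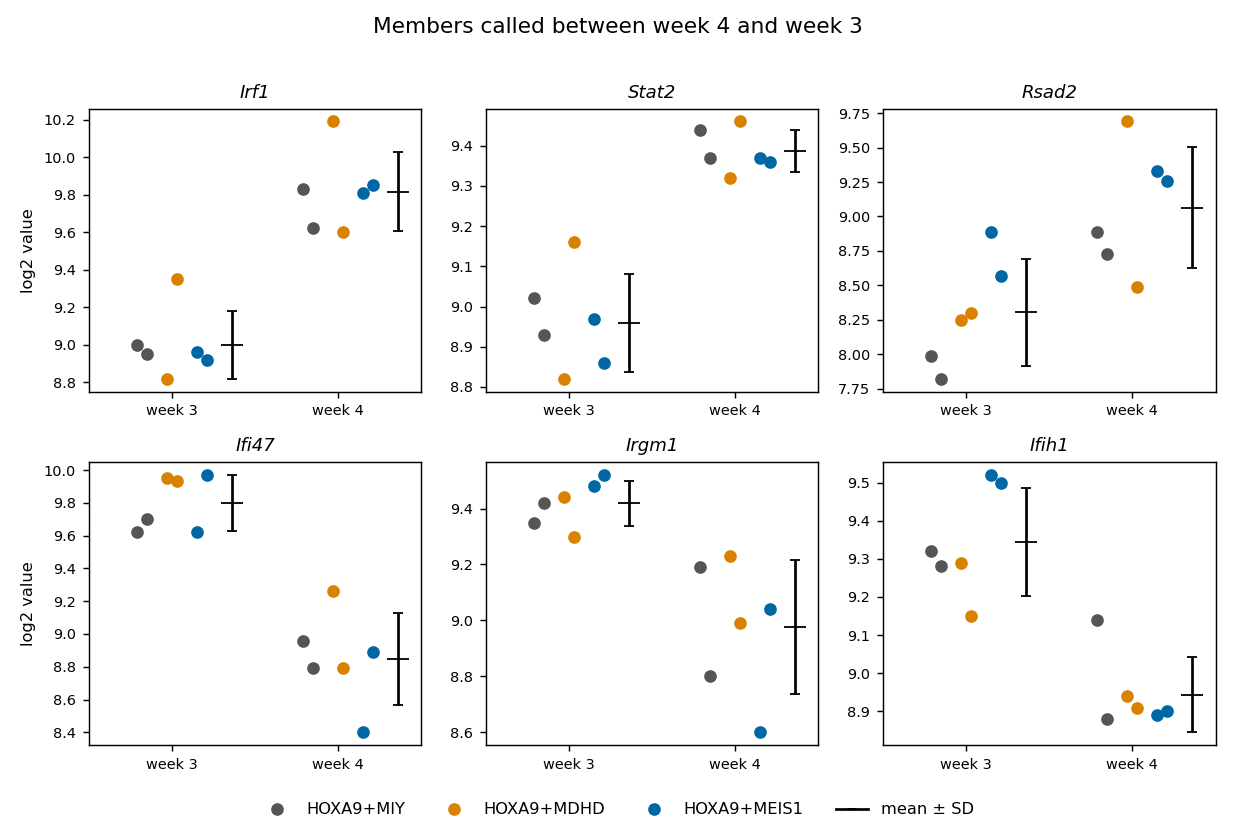
Log2 value of 6 members called between week 4 and week 3, by week, with a colour for each condition and bars for the mean ± SD of 6 arrays; each panel has its own vertical scale, which does not start at 0. Irf1 and Stat2 are higher and Ifi47, Irgm1 and Ifih1 lower at week 4 without overlap, whereas Rsad2 overlaps between the weeks.

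Among sensors and effectors the falls at week 4 were smaller than that of Ifi47. Ifih1 was 1.32-fold lower (-0.40 ± 0.066, adjusted p = 0.00034) and did not overlap between the weeks, with all 24 probe sets lower, in the opposite direction to its relative Ddx58. Ifit2 (-0.66 ± 0.104, adjusted p = 0.000224), Oas1a (-0.63 ± 0.108, adjusted p = 0.000452) and Oasl2 (-0.31 ± 0.085, adjusted p = 0.0106) were lower in both HOXA9+MEIS1 and at week 4. Ifi35 was at -0.30 ± 0.056 (adjusted p = 0.000887), again without overlap. Bst2 was at -0.24 ± 0.070 (adjusted p = 0.0155), and at -0.06 after quantile normalization (adjusted p = 0.425).

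The remaining 3 calls lay close to the threshold. They were Parp14 (-0.25 ± 0.090, adjusted p = 0.0400), Ifitm2 (-0.14 ± 0.047, adjusted p = 0.0310) and Ifitm3 (-0.38 ± 0.139, adjusted p = 0.0446). Parp14 was lost without any 1 of 7 arrays, HOXA9+MIY week 4 array 2, all 4 of HOXA9+MEIS1 and array 2 of either week of HOXA9+MDHD (adjusted p up to 0.0997). Ifitm2 and Ifitm3 were each lost without any 1 of 9 arrays, adjusted p up to 0.0821 and 0.104. The 9 were all 4 of HOXA9+MIY, both HOXA9+MEIS1 week 3 arrays and week 4 array 1, and HOXA9+MDHD week 4 array 1, with HOXA9+MDHD week 3 array 1 for Ifitm2 and week 3 array 2 for Ifitm3. All 3 were also lost after quantile normalization and after median centring, and Ifitm3 with the random block and with no filter as well. Zbp1 just missed the threshold (0.38 ± 0.143, adjusted p = 0.0502).

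Whether a condition's difference changed between the weeks was tested with interaction terms in limma. Of 34 members 0 were called for any of the 3 pairs of conditions, and 0% of all genes were. At an unadjusted p under 0.05 there were 5 members for HOXA9+MEIS1 against HOXA9+MIY (1343 genes in all), 2 for HOXA9+MDHD against HOXA9+MIY (997) and 3 between the Meis1 forms (1547). The smallest adjusted p among members was that of Ifit1, 0.321, with a difference of HOXA9+MEIS1 from HOXA9+MIY of 0.21 at week 3 and -0.71 at week 4.

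Other genes of the pathway were read from lists beside the members. Of all genes, 5.29% were called higher and 5.56% lower in HOXA9+MEIS1 than in HOXA9+MIY, 0.908% and 1.00% in HOXA9+MDHD than in HOXA9+MIY, and 2.24% and 2.11% in HOXA9+MEIS1 than in HOXA9+MDHD, which is the background of the counts below. Of the interferon ligands 3 of 9 passed the filter and 0 were called in limma in any of the 4 comparisons, with 1 at an unadjusted p under 0.05, at week 4. Ifnb1 had no probe set above it, and Ifng stood at 7.07 ± 0.073 (SD, n = 4) in HOXA9+MIY and 6.95 ± 0.075 in HOXA9+MEIS1. Of 7 receptor chains and Jak kinases 0 were called between conditions in limma, with 2 lower in HOXA9+MEIS1 than in HOXA9+MIY at an unadjusted p under 0.05, and Jak2 rose (0.54 ± 0.081) and Ifnar1 and Tyk2 fell at week 4. Of 8 other Stat and Irf genes 2 were lower in HOXA9+MEIS1 than in HOXA9+MIY, Irf5 (-0.94 ± 0.119) and Irf8 (-0.90 ± 0.118), factors of myeloid and dendritic cells. At an unadjusted p under 0.05 in limma there, 5 were lower (2219 of 20711 genes) and 0 higher (2348 of 20711). In HOXA9+MDHD 0 of the 8 were called, and between the Meis1 forms 2 were lower in HOXA9+MEIS1. At week 4, 3 were called higher (11.7% of all genes) and 0 lower (28.1% of all genes).

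Of 13 other genes of nucleic acid sensing 5 were lower in HOXA9+MEIS1 than in HOXA9+MIY and 0 higher in limma, also 0 at an unadjusted p under 0.05. Tlr7, the endosomal receptor for single-stranded RNA, was at least 3.58-fold lower (-2.02 ± 0.295, adjusted p = 0.000695), and Aim2, a cytosolic DNA sensor, 1.71-fold (-0.78 ± 0.089, adjusted p = 0.000126). In HOXA9+MDHD 0 of the 13 were called in limma, with 1 higher and 1 lower at an unadjusted p under 0.05, and with Tlr7 at -0.18 ± 0.295 and Aim2 at -0.10 ± 0.089. Both were called between the Meis1 forms, at -1.84 ± 0.295 and -0.67 ± 0.089. Of 5 inhibitors of the pathway 3 were lower in HOXA9+MEIS1, among them Socs3, a feedback inhibitor of Jak signalling (-0.79 ± 0.106).

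Of 43 other induced genes 3 were higher and 5 lower in HOXA9+MEIS1 than in HOXA9+MIY, with Sp100, a nuclear body protein, at 0.53 ± 0.106 and Ifi204, a DNA-binding protein of the Aim2 family, at -0.87 ± 0.111. In HOXA9+MDHD 1 was higher and 0 lower in limma, with 3 higher and 5 lower at an unadjusted p under 0.05. Between the Meis1 forms 1 was higher and 4 lower in HOXA9+MEIS1. At week 4, 7 of the 43 were higher (11.7% of all genes) and 13 lower (28.1% of all genes), with Samd9l at 1.49 ± 0.077 and Parp12 at -0.54.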

How the data were processed

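RNA of 12 cultures or culture times was measured on Affymetrix mouse exon arrays, biotin-labelled. The authors deposited log2 values per exon-level probe set, made with RMA in Affymetrix Expression Console, per the submitters' processing notes; versions are not given in the sources used here, and RMA makes values relative to this set of arrays. Probe sets naming 1 symbol with a mean above 6.2592 (the 50th percentile of all) were summarised per gene by median polish (Python 3.11.15, numba 0.67.0; 29 genes did not converge in 50 iterations). The limma 3.58.1 fit (R 4.3.3; lmFit, eBayes with trend, two-sided) had condition and week as terms, with 8 residual degrees of freedom, and was tested on simulated data. The number of arrays limits the precision. Arrays sharing a number differed together between conditions within a week with correlations of -0.11 to 0.13, so numbers were not used as pairs. The members and lists were chosen with earlier results of these data known. Named genes were the members called, the largest uncalled per role and up to 2 per other list. Alternatives were other filters, gene summaries, scalings, model terms, blocks and array subsets, and each array left out.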

Additional observations from a re-analysis of the deposited data

Results flagged for a closer look

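In 3 of 102 combinations of member and condition, 1 of the 4 arrays lay far from the others by Dixon's ratio at its 95% critical value; chance flags about 1 in 20 such groups. Zbp1 was highest on HOXA9+MDHD week 4 array 1, at 9.86 against 8.89 on the next array. Rsad2 was highest on the same array, at 9.69 against 8.49. Oas2 was lowest on HOXA9+MEIS1 week 4 array 2, at 6.49 against 6.72.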

How the results depend on the processing

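No called member changed sign in the fits run, which were 12 settings for the conditions and 8 for the weeks, each with 12 arrays left out in turn and with Ifit2 untested under the 75th percentile filter, except Ifi44 at week 4 against week 3, which was -0.17 with the 75th percentile filter on dim probe sets. Members called in HOXA9+MEIS1 against HOXA9+MIY numbered 4 with no week term, 4 from the week 3 arrays alone and 5 from the week 4 arrays alone (9 as reported). All genes came to 904, 918 and 859, against 2246. Of these members 1, 2 and 0 were higher in turn (4 as reported), and of all genes called 385, 436 and 371 were higher. Without an array 6 to 11 members were called (all genes 1634 to 2556). In HOXA9+MDHD against HOXA9+MIY they numbered 1 with no week term and 0 from the week 4 arrays alone (3 as reported). All genes there came to 37 with no week term, 240 and 11 from the week 3 and week 4 arrays alone, 612 with condition and number as a random block, 162 from the groups compared alone, and 140 to 989 without an array (396 as reported); members came to 1 to 6 without an array. Between the Meis1 forms members numbered 1 with no week term, 0 from the week 4 arrays alone, 1 from the groups compared alone and 1 to 5 without an array (2 as reported). All genes there came to 295, 393 and 226 with no week term and from the week 3 and week 4 arrays alone, 540 from the groups compared alone, and 608 to 1032 without an array (902 as reported). Week subsets hold 6 arrays. The cause of the other changes was not tested. Members called at week 4 against week 3 numbered 14 to 18 throughout. With the number in the labels as a replicate block, 11, 5 and 1 members were called in the 3 pairs of conditions and 17 between the weeks; Gbp2 (0.40 and 0.53) and Ifitm3 (-0.44 and -0.53) were then called in both Meis1 forms against HOXA9+MIY and Oasl2 (-0.42) was not between them, while between the weeks Zbp1 (0.38) was called and Parp14 (-0.25) and Ifitm2 (-0.14) were not. With condition and number as a random block Ifitm2 was called in HOXA9+MDHD against HOXA9+MIY (-0.22) and Igtp between the Meis1 forms (0.35). Rsad2 in HOXA9+MEIS1 against HOXA9+MIY was lost with no filter and with the mean of the probe sets, and Ifitm1 in the same comparison after quantile normalization. Values near 6.26 are close to background, so the sizes of the Ifit2 and Ifitm6 falls in HOXA9+MEIS1 are bounds. They are bounds for the probe sets that passed the filter.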
